A study of Mus musculus with 16 samples.

Results

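Tumour necrosis factor (TNF, TNFa in the study's labels) was given for 2 hours at 20 ng/ml to small intestinal organoids of the Atg16L1 f/f genotype, and the 4 stimulated libraries were compared with 4 libraries of unstimulated f/f organoids. These are 8 of the 16 libraries of the series, chosen by genotype and treatment label alone, and the other 8 hold Atg16L1 dIEC organoids without and with the same stimulation. Organoids of this kind are epithelial cultures grown from isolated crypts, here of C57BL/6 mice and on day 3 of culture. The f/f cells carry loxP-flanked Atg16l1, the autophagy gene the study deals with, and stand as its wild-type group, and the dIEC cells are its ATG16L1-deficient group. Both f/f groups share genotype, strain and day of culture, and differ in their labels by the agent alone. The Cre line behind dIEC is not named in the labels, and no label ties a library to an animal, a crypt preparation or a culture, so the p-values below rest on differences among libraries whose independence is unknown and which could be technical.

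TNF binds the receptors TNFR1 and TNFR2. The first recruits an adaptor and ubiquitin-ligase complex that activates the IKK and MAP kinases, and IKK frees NF-kB dimers from their IkB inhibitors by marking those for degradation. NF-kB then drives genes for chemokines, adhesion molecules and survival factors, along with its own inhibitors, which close the response again. In intestinal epithelium the same cytokine is known for inducing chemokine release and, where survival signals fail, cell death and loss of Paneth cells.

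RNA levels were deposited as FPKM (fragments per kilobase of transcript scaled to the mapped fragments of the library), without counts, so the depth behind each value is unknown. A gene was tested where its mean over the 16 libraries reached 1 FPKM, on the log2(FPKM + 1) scale. This scale understates the change of genes near or under 1 FPKM. Summed FPKM ran from 494221 to 594830 in the 8 libraries, and 10796 to 11144 genes reached 1 FPKM. Libraries of the same group correlated at r = 0.967 to 0.98 across genes, and libraries of different treatment at 0.938 to 0.957. The first principal component, with 47.4% of the variance, separated the treatments. On the second (14%), library 1 of each treatment lay apart at scores of 14 and 27.4, and in both of them the deviation from the group mean fell with transcript GC content (rank correlation across genes -0.736 and -0.757, against 0.0957 to 0.709 in the other 6). Fits without the libraries that lay apart leave these out, along with library 4 of both dIEC groups. Markers of other cell types were mostly under 1 FPKM. Of 14 immune markers only Lyz2, the macrophage lysozyme gene whose reads may be shared with Lyz1 of Paneth cells, reached 1 FPKM in any library, and the summed list was 27.8 to 33.3 FPKM without and 32.7 to 38.8 FPKM with TNF (exact two-sided permutation test, p = 0.0571, n = 4 a group). Lyz2 itself was called higher with TNF (log2 change 0.28, SE 0.0804, adjusted p = 0.00949), a call lost after median-of-ratios scaling (adjusted p = 0.0514), and its part in the results below was not tested. Of 14 mesenchymal and endothelial markers only Vim reached it, and the sum was 4.00 to 13.8 FPKM and 3.63 to 10.4 FPKM (p = 0.914, same exact test).

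The floxed gene itself was read at 8.37, 9.37, 9.32 and 8.81 FPKM without TNF and 9.60, 10.8, 10.2 and 11.1 FPKM with TNF. All 4 stimulated libraries lay above all 4 controls (log2 change 0.20, SE 0.0638, adjusted p = 0.0194), a difference of 1.47 FPKM (exact two-sided permutation p = 0.0286, the smallest that 4 against 4 can give). The adjusted call was lost without library 1 of the controls and without library 2 or 4 of the TNF group, at adjusted p = 0.0634, 0.0535 and 0.0653. It was also lost after quantile normalization (log2 change 0.094, adjusted p = 0.0826 in limma).

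TNF changed a large share of the transcriptome, mostly by small amounts. Of 11097 genes tested, 5235 (47.2%) passed limma's adjusted p under 0.05, with 2986 higher (26.9%) and 2249 lower (20.3%). The values of the 2 groups did not overlap in 4885 genes (44%), being higher with TNF in 24.1% of all genes and lower in 19.9%. Only 298 genes (2.69%) also changed at least 2-fold, and of these 227 rose (2.05%) and 71 fell (0.64%). The median change over all genes was 0.05 on the log2 scale. The split of the calls moved with scaling: 57.0% of called genes were higher as deposited, 48.8% after median-of-ratios scaling, and 45.2% after quantile normalization, with 2346 higher and 2844 lower. These shares are the background against which the gene groups below are read, and a bare value given for a gene is its log2 change on the log2(FPKM + 1) scale. A gene with a control mean under 1 FPKM was tested only because other groups were higher. Counts of lists that hold such genes are conditioned on this filter. Where not marked again below, this holds for 2 genes of the interferon regulatory and JAK-STAT list. It also holds for 1 gene each of the MAP kinase phosphatase, antigen presentation, cell death, hypoxia and stem cell lists.

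**Figure D1:**
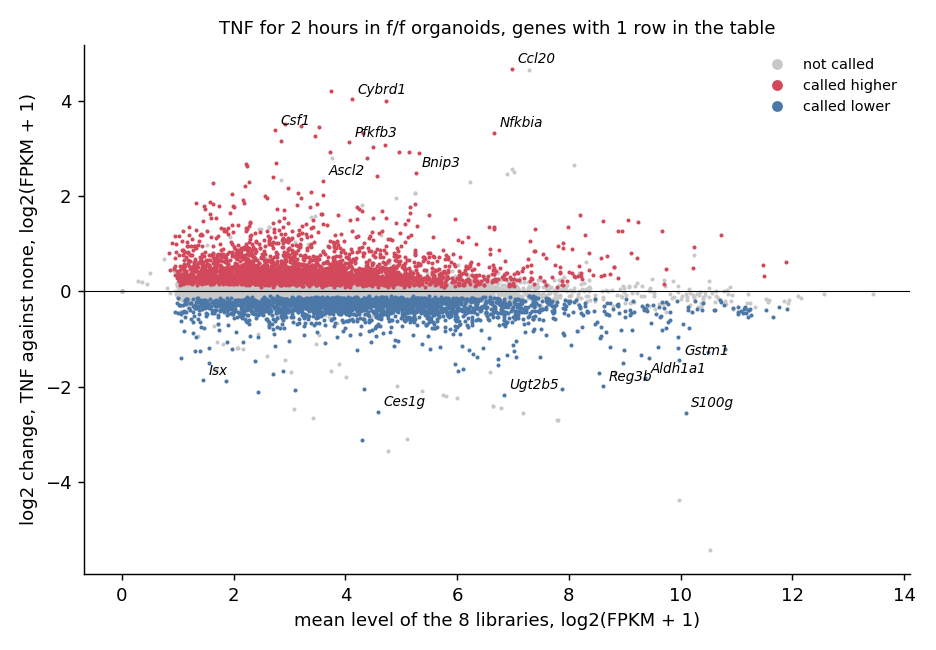
Log2 change with TNF in f/f organoids (vertical axis) against the mean level of the 8 libraries (horizontal axis), both on the log2(FPKM + 1) scale, 1 point per gene with 1 row in the table. Red and blue points passed adjusted p under 0.05, and large changes are mostly rises, with Ccl20 near 4.67 at the top and S100g at -2.55 among highly expressed genes that fell. Some grey points with larger differences did not pass, their libraries being spread widely.

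Among called genes with 1 row, a full gene symbol and groups that did not overlap, the largest rise on the log2(FPKM + 1) scale belonged to Ccl20 (chr1:83116766-83119167, plus strand, mm10), the chemokine that draws CCR6-bearing lymphocytes and dendritic cells to the epithelium. It was read at 8.82, 9.75, 8.55 and 7.39 FPKM without TNF and 221, 248, 256 and 249.5 FPKM with TNF. Every stimulated library was far above every control, and the ratio of means was 28.2 (log2 change 4.67, SE 0.0726, adjusted p = 3.69e-16). The second was Cybrd1, the brush-border ferric reductase of iron uptake, which was read at 0.968, 1.03, 0.983 and 0.980 FPKM without TNF and 34.3, 30.6, 31.7 and 30.0 FPKM with TNF (log2 change 4.03, SE 0.0935, adjusted p = 8.90e-14). Cd74, the invariant chain that escorts MHC class II, followed with 1.54, 2.38, 2.42 and 2.13 FPKM without TNF and 36.5, 56.9, 55.3 and 47.1 FPKM with TNF (log2 change 3.99, SE 0.170, adjusted p = 1.10e-10). Icam1, Cxcl10, Ak4, Csf1, Nfkbia, Bcl3, H2-Ab1 and Nos2 came next among the genes whose groups did not overlap, with log2 changes from 3.51 down to 3.16. This order holds on the log2(FPKM + 1) scale, which understates genes of low starting level. Among the genes named so far, by the ratio of means, Csf1 (68.7), Icam1 (64.1), Cybrd1 (31.9) and Cxcl10 (31.2), whose control means were under 1 FPKM, stood above Ccl20.

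Among the receptors and the proximal signalling complex most changes were small. Of 18 members tested, 8 were higher and 2 lower, against 26.9% and 20.3% of all genes, and the median log2 change was 0.17. TNFR1 itself, encoded by Tnfrsf1a, was read at 21.5, 29.7, 28.4 and 27.8 FPKM without TNF and 25.6, 32.6, 32.5 and 30.9 FPKM with TNF, and its groups overlapped (log2 change 0.18, SE 0.119, adjusted p = 0.242). It was called higher with sample weights (adjusted p = 0.018) and without the libraries that lay apart (adjusted p = 0.0252). TNFR2 (Tnfrsf1b), the receptor of inducible expression, rose from 1.47, 1.78, 1.90 and 1.87 FPKM to 3.58, 3.87, 3.92 and 4.05 FPKM (log2 change 0.82, SE 0.0651, adjusted p = 1.19e-07). Birc3, which encodes the ubiquitin ligase cIAP2, was the member with the largest change, at 10.5, 10.8, 11.0 and 10.0 FPKM without TNF and 31.3, 32.4, 33.4 and 33.1 FPKM with TNF (log2 change 1.54, SE 0.0432, adjusted p = 9.09e-13). Its paralog Birc2 (cIAP1) had a log2 change of 0.10 with adjusted p = 0.258. The adaptor Tradd and the kinase Ripk1 had -0.15 and 0.02, with overlapping groups. Of the IKK genes, the catalytic subunit Ikbkb rose by 0.33, while Chuk and the regulatory subunit Ikbkg changed by -0.30 and -0.28. The count of 8 higher fell to 5 without library 1 of the controls or without library 3 or 4 of the TNF group, and also under both rescalings, and became 12 without the libraries that lay apart. Map3k7, Rnf31, Tab2 and Adam17 were among the members whose calls were lost.

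All 5 NF-kB subunits rose, against 26.9% of all genes, and the groups did not overlap in any of the 5. Nfkb2, the precursor of p52, went from 3.39, 4.86, 4.12 and 4.27 FPKM to 23.5, 40.7, 38.1 and 40.2 FPKM (log2 change 2.80, SE 0.164, adjusted p = 3.98e-09). Relb, its usual partner, went from 5.15, 7.18, 6.65 and 6.33 FPKM to 26.4, 46.4, 40.4 and 43.4 FPKM (log2 change 2.43, SE 0.175, adjusted p = 4.01e-08). The canonical subunits moved less, with log2 changes of 1.02 for Rela, 1.00 for Rel and 0.73 for Nfkb1. The largest changes thus belonged to both members of the non-canonical dimer. In both Nfkb2 and Relb, library 1 of the TNF group was the lowest of the stimulated libraries and still above every control.

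The NF-kB feedback list, most of whose members restrain the pathway, was mostly higher. Of 13 members tested, 11 were higher and 0 lower, against 26.9% and 20.3% of all genes. The median log2 change of the list was 0.96. Of the 13, 1 (Nfkbie, mean 0.681 FPKM without TNF) met the minimum only through the TNF groups, so the count is conditioned on the filter. Nfkbia, which encodes IkB-alpha, reached 17.2, 17.8, 16.8 and 17.1 FPKM without TNF and 148, 198, 186 and 199 FPKM with TNF, and each stimulated library was far above all 4 controls (log2 change 3.33, SE 0.0835, adjusted p = 2.61e-13). Tnfaip3, the ubiquitin-editing enzyme A20, had 1.98, 2.07, 2.21 and 2.15 FPKM without TNF and 20.6, 22.4, 23.3 and 23.3 FPKM with TNF (log2 change 2.91, SE 0.0536, adjusted p = 3.81e-15), and its partner Tnip1 rose by 1.73. Bcl3, a nuclear IkB protein, went from 1.99, 2.64, 3.02 and 2.73 FPKM to 26.0, 39.8, 35.1 and 39.6 FPKM (log2 change 3.32, SE 0.174, adjusted p = 1.16e-09). Smaller rises were measured for Nfkbid (1.25), Nfkbie (0.96), Nfkbib (0.83) and Nfkbiz (0.29). Tifa, which stands in the list although it encodes an adaptor that activates NF-kB, rose by 0.32, a call lost after quantile normalization (adjusted p = 0.123). The deubiquitinase gene Cyld had 0.11 (adjusted p = 0.15) although its groups did not overlap, and Tnip2 had 0.05 (adjusted p = 0.608). Of 8 regulators of mRNA decay, which shorten the life of cytokine transcripts, 4 rose and 0 fell, against 26.9% and 20.3% of all genes. The 4 that rose were Zc3h12a, the endonuclease Regnase-1 (1.35), the ARE-binding Zfp36 (1.13) and Zfp36l1 (0.72), and N4bp1 (0.67).

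**Figure D2:**
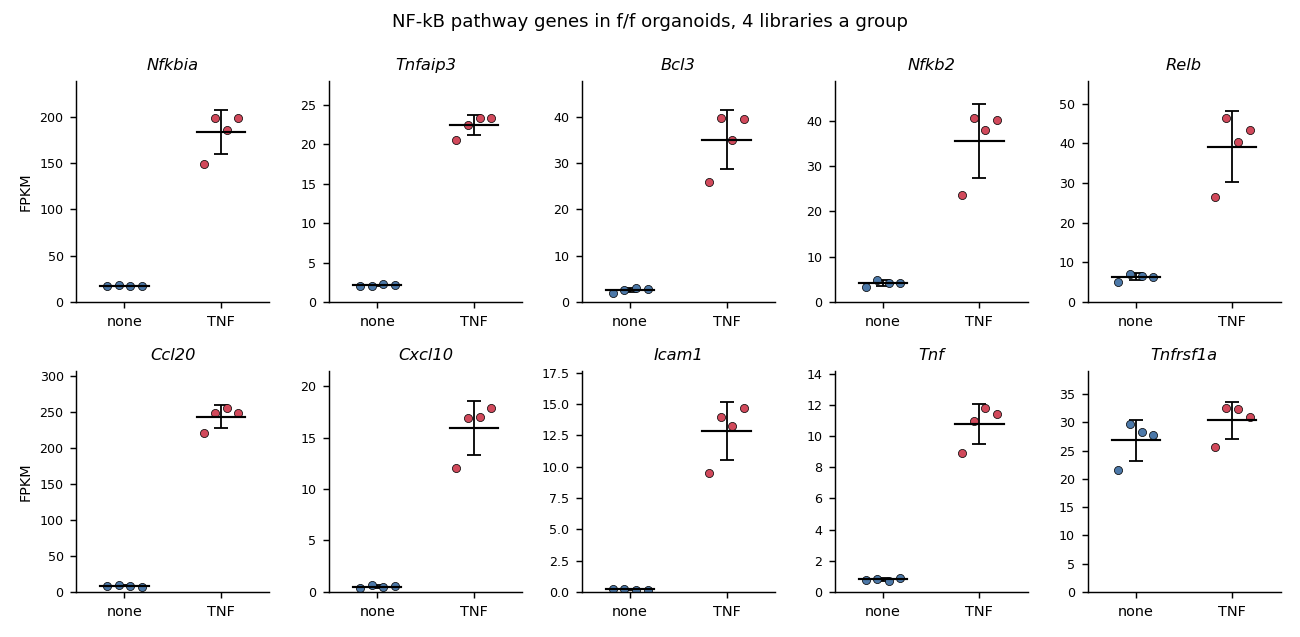
FPKM in each library (points) of 10 NF-kB pathway genes in f/f organoids without and with TNF, with the mean (line) and SD (bar), 4 libraries a group, each vertical axis starting at 0. The groups separate for 9 genes and overlap for the receptor gene Tnfrsf1a.

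Promoters of genes with large rises and a match are shown because NF-kB acts through kB elements near their start sites. RefSeq windows of the 250 bases before each start (build GRCm38.p6, the assembly of mm10) were searched on both strands for GGG and TTCC with any 3 bases between them, or GGG and TTCCC with any 2 between, patterns that can overlap each other. Of 27025 genes with a window, 6.53% had a match in at least 1. Of the 11 members of the feedback list that rose, 8 had a window and 5 of these had a match, namely Nfkbia, Nfkbie, Nfkbid, Tnfaip3 and Tnip1. These 8 genes had 12 windows, 6 of them with a match, against 5.74% of all 32851 windows. A gene with several windows has more chances of a match. Of the 6 chemokines that rose, 4 had a window, and Cxcl10 and Ccl20 had a match. A match is a description of letters and not a measured binding site. The windows below run 5′ to 3′ along the gene strand with the matches in capitals, for Nfkbia (chr12:55492648-55492897, minus strand), Tnfaip3 (chr10:19015411-19015660, minus strand), Cxcl10 (chr5:92348890-92349139, minus strand) and Ccl20 (chr1:83116516-83116765, plus strand).
Nfkbia: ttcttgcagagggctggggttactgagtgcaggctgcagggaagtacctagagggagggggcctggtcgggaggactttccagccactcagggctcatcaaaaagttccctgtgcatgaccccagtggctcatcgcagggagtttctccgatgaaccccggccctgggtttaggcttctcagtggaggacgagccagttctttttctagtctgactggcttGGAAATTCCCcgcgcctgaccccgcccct
Tnfaip3: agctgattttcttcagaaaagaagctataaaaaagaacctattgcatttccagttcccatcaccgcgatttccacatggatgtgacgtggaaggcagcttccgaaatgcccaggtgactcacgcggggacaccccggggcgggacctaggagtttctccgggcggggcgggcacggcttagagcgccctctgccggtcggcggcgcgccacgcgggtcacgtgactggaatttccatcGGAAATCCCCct
Cxcl10: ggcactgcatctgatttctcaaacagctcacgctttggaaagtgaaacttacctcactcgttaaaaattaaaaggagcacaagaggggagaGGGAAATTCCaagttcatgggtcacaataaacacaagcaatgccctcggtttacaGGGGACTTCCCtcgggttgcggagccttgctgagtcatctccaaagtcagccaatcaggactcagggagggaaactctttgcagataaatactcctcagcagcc
Ccl20: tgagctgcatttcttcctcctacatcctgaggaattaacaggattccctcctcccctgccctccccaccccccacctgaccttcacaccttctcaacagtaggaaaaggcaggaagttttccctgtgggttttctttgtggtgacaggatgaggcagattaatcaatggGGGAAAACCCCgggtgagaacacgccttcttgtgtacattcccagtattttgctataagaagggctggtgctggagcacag
The match of Nfkbia begins 29 bases before the start and that in the Tnfaip3 window shown 12 bases before it. A second window of Tnfaip3 (chr10:19011964-19012213, minus strand), not shown, has a match that begins 90 bases before its own start. In Cxcl10 one match begins at 159 bases and an overlapping pair at 104 and 103, and in Ccl20 an overlapping pair begins at 81 and 80.

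Chemokine RNA rose steeply for a few members. Of 8 tested, 6 were higher and 1 lower, against 26.9% and 20.3% of all genes. Of the 8, 2 (Cxcl10 and Cxcl11) were below 1 FPKM without TNF and met the minimum only through the TNF groups, so the count is conditioned on the filter. Besides Ccl20, Cxcl10, the ligand of CXCR3, was read at 0.349, 0.702, 0.459 and 0.532 FPKM without TNF and 12.1, 16.9, 17.0 and 17.9 FPKM with TNF (log2 change 3.48, SE 0.125, adjusted p = 1.78e-11). Cxcl16, a membrane-bound ligand of CXCR6, rose from 2.87, 2.97, 2.60 and 2.63 FPKM to 11.8, 13.8, 14.6 and 14.2 FPKM (log2 change 1.95, SE 0.0756, adjusted p = 3.73e-11). Cxcl11 and Cx3cl1 rose by 1.17 and 0.97. The homeostatic chemokine Ccl28 is counted among the 6 but passed the threshold only narrowly (log2 change 0.19, adjusted p = 0.043). Its call was lost with the 8 f/f libraries alone (adjusted p = 0.058), with no minimum level (0.0608), under median-of-ratios scaling (0.285) and quantile normalization (0.22), and without control library 2, 3 or 4 or TNF library 1 or 3 (0.0526 to 0.118). Ccl25, made constitutively by small bowel, was lower by a small amount, and its call was not stable (log2 change -0.15, SE 0.0507, adjusted p = 0.0228): the adjusted p was 0.0728, 0.0721 and 0.052 without control library 1 and TNF libraries 2 and 3, and the value was 0.02 (adjusted p = 0.814) after a GC trend was removed. The other 13 listed chemokines stayed below the 1 FPKM minimum and were not tested. Among them Cxcl1, a neutrophil chemokine, was read at 0.166, 0.0577, 0.0912 and 0 FPKM without TNF and 1.27, 1.18, 1.56 and 1.29 FPKM with TNF. Cxcl2 was listed at 0 in all 4 controls and at 0.258 to 0.579 FPKM with TNF.

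Of 9 cytokine genes tested, 7 were higher and 1 lower, against 26.9% and 20.3% of all genes. Of the 9, 6 were below 1 FPKM without TNF and met the minimum only through groups in which they were higher, so the count is conditioned on the filter, and 3 were higher with a minimum mean of 5 FPKM. Tnf itself was read at 0.782, 0.826, 0.707 and 0.904 FPKM without TNF and 8.93, 11.0, 11.8 and 11.4 FPKM with TNF (log2 change 2.70, SE 0.0770, adjusted p = 1.00e-12). Csf1, the growth factor of macrophages, went from 0.154, 0.152, 0.214 and 0.134 FPKM to 8.68, 11.5, 13.1 and 11.7 FPKM (log2 change 3.38, SE 0.0877, adjusted p = 3.63e-13). The TNF-family ligands Tnfsf15, Tnfsf10 (TRAIL) and Tnfsf9 rose by 1.53, 1.28 and 1.13, Il1rn, the interleukin-1 receptor antagonist, by 0.66, and Lif by 0.39. Il18, the epithelial inflammasome cytokine, fell from 30.4, 30.0, 31.0 and 29.1 FPKM to 24.7, 21.3, 20.0 and 19.0 FPKM (log2 change -0.49, SE 0.0981, adjusted p = 0.000856). Of the 19 cytokines under the minimum, Il17c was listed at 0 in every control and at 0.528 to 1.04 FPKM with TNF.

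Of 7 adhesion and costimulation genes tested, 6 rose and 0 fell, against 26.9% and 20.3% of all genes, and 8 listed genes stayed under the minimum. Of the 7, 1 (Icam1) was below 1 FPKM without TNF and met the minimum only through the TNF groups, so its place in the count was set by the filter. Icam1, the epithelial ligand of leukocyte LFA-1, was nearly absent in the controls and read at 0.268, 0.210, 0.171 and 0.153 FPKM without TNF and 9.46, 14.0, 13.3 and 14.7 FPKM with TNF (log2 change 3.51, SE 0.0993, adjusted p = 9.42e-13). Cd83 rose from 3.09, 3.10, 3.53 and 3.12 FPKM to 9.78, 11.0, 10.7 and 10.2 FPKM (log2 change 1.44, SE 0.0739, adjusted p = 9.11e-10). The death receptor Fas (0.94), Cd44 (0.61), the cell adhesion gene Ceacam1 (0.52) and Tnfrsf12a (0.43), the receptor of TWEAK, changed less.

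Immediate early genes, which MAP kinases are known to induce, were mostly higher. Of 21 AP-1 and immediate early genes tested, 17 were higher and 0 lower, against 26.9% and 20.3% of all genes. The median log2 change of the list was 0.74. Ier3, an early survival gene, went from 2.89, 2.93, 2.63 and 3.35 FPKM to 11.5, 17.5, 17.0 and 18.1 FPKM (log2 change 2.09, SE 0.135, adjusted p = 1.23e-08). Atf3, a stress-induced bZIP factor, went from 2.28, 2.30, 2.53 and 2.53 FPKM to 11.8, 13.4, 13.0 and 15.1 FPKM (log2 change 2.06, SE 0.0841, adjusted p = 6.86e-11), and Maff and Klf10 rose by 1.53 and 1.10. Of 11 genes for MAP kinase phosphatases and related feedback, 8 were higher and 1 lower. The largest changes were those of Dusp1 (1.65), Dusp14 (1.46), Dusp8 (1.26) and Dusp4 (1.08), which remove phosphate from MAP kinases. Dusp1 was read at 0.751, 0.752, 0.820 and 1.06 FPKM without TNF and 4.63, 4.56, 4.46 and 5.58 FPKM with TNF, so its controls lay near or under the 1 FPKM minimum.

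Genes of interferon signalling and antigen presentation were also mostly higher. Of 22 interferon regulatory and JAK-STAT genes, 15 were higher and 0 lower, against 26.9% and 20.3% of all genes. Irf1, a transcription factor gene and known NF-kB target, went from 14.3, 15.3, 14.8 and 16.3 FPKM to 37.9, 42.8, 45.5 and 44.5 FPKM (log2 change 1.43, SE 0.0564, adjusted p = 4.61e-11). Both chains of the interferon-gamma receptor rose, Ifngr1 by 0.88 and Ifngr2 by 0.61. Of 23 interferon-stimulated genes tested, 14 were higher and 0 lower, with a median of 0.43. Of the 23, 9 were below 1 FPKM without TNF and met the minimum only through groups in which they were higher, so this count is conditioned on the filter too. The 4 of smallest adjusted p were Rtp4 (1.27), Samd9l (1.15), Ifi47 (0.89) and Parp14 (0.78). Ifit3, named after its value was seen, had 0.19 (adjusted p = 0.522).

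Of 17 antigen presentation genes, 11 were higher and 2 lower, against 26.9% and 20.3% of all genes. The count of higher genes was 6 without control library 1, without TNF library 2 and without TNF library 3. The class II chain gene H2-Ab1 was read at 0.911, 0.990, 1.14 and 1.19 FPKM without TNF and 14.4, 22.4, 20.8 and 17.9 FPKM with TNF (log2 change 3.26, SE 0.145, adjusted p = 1.84e-10), and its partner H2-Aa went from 0.361, 0.350, 0.158 and 0.200 FPKM to 5.19, 8.17, 8.43 and 6.70 FPKM (log2 change 2.66, SE 0.147, adjusted p = 2.04e-09). H2-DMa, of the peptide-exchange factor, rose by 1.12. The 5 class II genes tested, a family counted after the values were seen, were called higher. H2-Aa, H2-Eb1 and H2-DMb1 were under 1 FPKM without TNF and met the minimum only through the TNF groups, and 1 gene of the family was tested with a minimum mean of 5 FPKM, so the count supports nothing on its own. Ciita, the master activator of class II genes, stayed under the minimum, with 0.00891, 0.0276, 0.0340 and 0.0323 FPKM without TNF and 0.259, 0.485, 0.338 and 0.418 FPKM with TNF. The class I chains H2-K1 and H2-D1, also named after their values were seen, changed by 0.39 and 0.43, although H2 genes share near-identical stretches and reads may be split between them in error.

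Of 12 antimicrobial genes tested, 7 were higher and 3 lower, against 26.9% and 20.3% of all genes. Of the 12, 3 were below 1 FPKM without TNF and met the minimum only through other groups. The count is therefore conditioned on the filter, and 5 were higher with a minimum mean of 5 FPKM. Nos2, the inducible nitric oxide synthase, went from 0.436, 0.403, 0.557 and 0.368 FPKM to 10.0, 11.7, 12.6 and 13.4 FPKM (log2 change 3.16, SE 0.0848, adjusted p = 5.56e-13). Of the phospholipase gene Pla2g2a only RNA was read, not enzyme, and it rose from 6.71, 6.07, 5.87 and 6.41 FPKM to 17.7, 22.8, 21.7 and 22.0 FPKM (log2 change 1.60, SE 0.0836, adjusted p = 1.12e-09). Against these, the lectin gene Reg3b fell from 669, 581, 633 and 601 FPKM to 147, 153, 183 and 144 FPKM (log2 change -1.98, SE 0.0958, adjusted p = 4.44e-10), and Lypd8, which keeps flagellated bacteria off the epithelium, had a log2 change of -0.80. The count of lower genes was 5 after median-of-ratios scaling. Reg3g, named after its values were seen, had -0.17 (adjusted p = 0.114).

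Of 23 cell death genes, 10 were higher and 5 lower, against 26.9% and 20.3% of all genes. The median of the list was 0.07, and its share of lower genes was near that of all genes. The BH3-only genes Pmaip1 (Noxa) and Bcl2l11 (Bim), which open the mitochondrial route, rose by 1.14 and 0.66, and Casp4, which senses cytosolic lipopolysaccharide in mice as caspase-11, rose from 19.7, 15.4, 16.0 and 15.8 FPKM to 41.0, 35.0, 36.1 and 36.6 FPKM (log2 change 1.11, SE 0.0827, adjusted p = 5.91e-08). Of the necroptosis genes, both named after their values were seen, Ripk3 had 0.09 (adjusted p = 0.425) and Mlkl changed by -0.16. The count of 5 lower was 3 without control library 2.

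The hypoxia and glycolysis list moved almost as one. Of 16 members, 15 were higher, against 26.9% of all genes. The median log2 change of the list was 1.36, and only Hif1a was lower, and is named for that reason (-0.49). Pfkfb3, which makes the activator of glycolytic phosphofructokinase, was read at 2.03, 2.40, 2.71 and 2.63 FPKM without TNF and 26.5, 28.6, 30.1 and 30.8 FPKM with TNF (log2 change 3.13, SE 0.0811, adjusted p = 3.63e-13). Egln3, the oxygen-sensing prolyl hydroxylase PHD3, went from 5.67, 6.23, 7.10 and 6.01 FPKM to 53.9, 52.9, 52.4 and 55.4 FPKM (log2 change 2.92, SE 0.0958, adjusted p = 6.46e-12). Bnip3, a mitophagy receptor, was read at 10.5, 10.0, 11.6 and 10.3 FPKM without TNF and 65.3, 66.8, 62.4 and 61.8 FPKM with TNF (log2 change 2.49, SE 0.0908, adjusted p = 2.09e-11). Ankrd37 rose by 3.07 and Hk1 by 1.85. The lactate exporter gene Slc16a3 and the adenylate kinase gene Ak4, which are outside the list and named for the size of their rises, rose by 3.03 and 3.45. Ldha, Vegfa and Slc2a1, named after their values were seen, rose by 0.93, 1.09 and 0.91. In each of the 8 fits that left out 1 library, 15 members were higher.

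HIF transcription factors bind ACGTG, and this pentamer was therefore looked up in the same windows, on both strands. Of 27025 genes with a window, 18.5% had it in at least 1. Of the 15 hypoxia genes that rose, 14 had a window and 11 had a match in at least 1. These genes had 22 windows, 13 of them with a match, against 16.6% of all 32851 windows. A gene with several windows has more chances of a match. The windows of Bnip3 (chr7:138909507-138909756, minus strand), of this list, and of Slc16a3 (chr11:120948817-120949066, plus strand), which is outside the list and these counts, are shown as examples, with the matches in capitals. Pfkfb3, Ankrd37 and Egln3, which also had a match, rose more than Bnip3. In Bnip3 the matches on the 2 strands overlap.
Bnip3: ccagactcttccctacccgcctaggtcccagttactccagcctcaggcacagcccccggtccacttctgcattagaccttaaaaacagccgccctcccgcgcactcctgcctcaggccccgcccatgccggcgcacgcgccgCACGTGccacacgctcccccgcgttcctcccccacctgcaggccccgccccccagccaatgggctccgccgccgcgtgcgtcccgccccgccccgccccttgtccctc
Slc16a3: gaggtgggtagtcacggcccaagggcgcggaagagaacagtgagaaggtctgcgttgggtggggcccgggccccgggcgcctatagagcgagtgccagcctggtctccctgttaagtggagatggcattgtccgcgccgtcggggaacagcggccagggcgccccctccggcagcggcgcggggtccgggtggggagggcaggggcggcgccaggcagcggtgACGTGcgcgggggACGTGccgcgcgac

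A few further genes are given singly, picked after their values were seen and from no list. The ferrous iron importer Slc11a2 went from 16.8, 22.2, 22.4 and 20.9 FPKM to 45.0, 58.3, 61.0 and 56.1 FPKM (log2 change 1.38, SE 0.0966, adjusted p = 3.03e-08). The transferrin receptor gene Tfrc went the other way, from 112, 94.4, 101 and 102 FPKM to 46.0, 39.8, 42.5 and 44.9 FPKM (log2 change -1.22, SE 0.0948, adjusted p = 9.18e-08), as did the exporter Slc40a1 (log2 change -0.92, SE 0.0750, adjusted p = 1.66e-07). P4ha1, a collagen prolyl hydroxylase subunit, and the thiol oxidase Ero1l rose by 1.96 and 1.35.

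**Figure D3:**
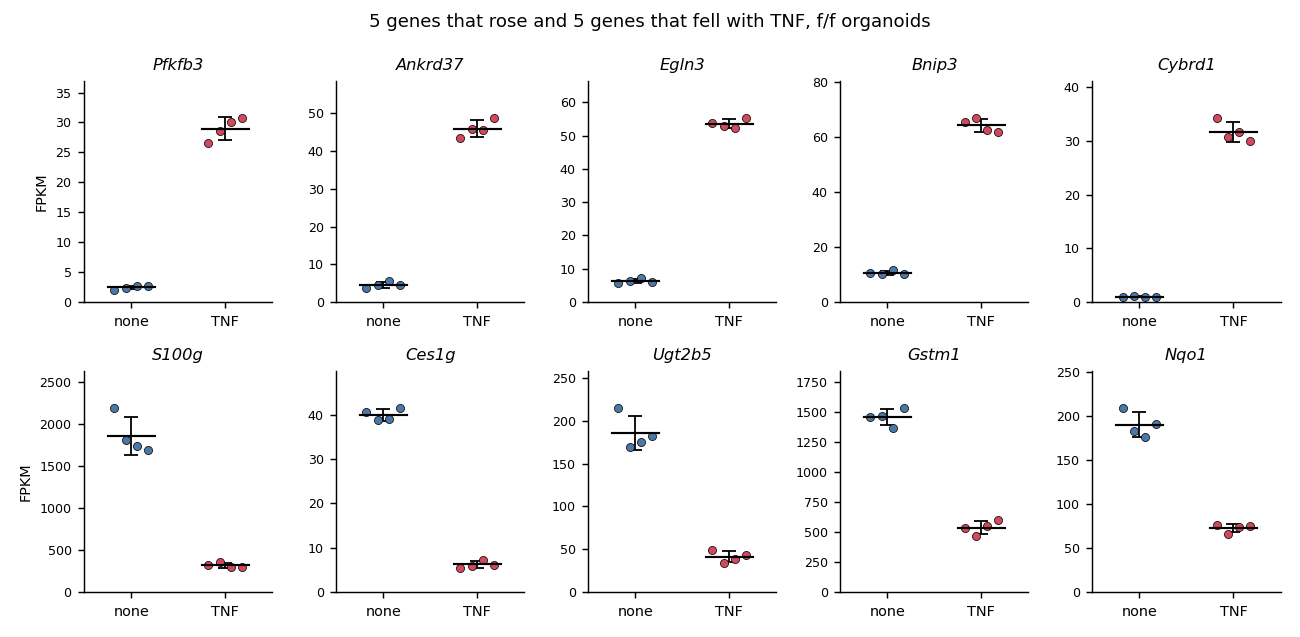
FPKM in each library (points) of 5 genes that rose, 4 of the hypoxia list and Cybrd1, and of 5 genes that fell, in f/f organoids without and with TNF, with the mean (line) and SD (bar), 4 libraries a group, each vertical axis starting at 0. The groups do not overlap in any of the 10 genes.

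The largest falls included abundant genes. S100g, which encodes the calcium-binding calbindin-D9k of vitamin D-driven calcium uptake (chrX:162961992-162964599, minus strand, mm10), was read at 2192, 1805, 1735 and 1692 FPKM without TNF and 325, 354, 291 and 296 FPKM with TNF (log2 change -2.55, SE 0.120, adjusted p = 3.41e-10). With TNF it stood at 17.1% of the control mean. Ces1g, a carboxylesterase of lipid handling, fell from 40.7, 38.7, 38.9 and 41.5 FPKM to 5.46, 5.86, 7.25 and 6.15 FPKM (log2 change -2.52, SE 0.102, adjusted p = 6.70e-11). Ugt2b5, a glucuronosyltransferase, fell from 215, 169.9, 175 and 183 FPKM to 48.9, 33.7, 38.3 and 42.7 FPKM (log2 change -2.16, SE 0.135, adjusted p = 8.70e-09). Aldh1a1, a retinaldehyde dehydrogenase, went from 1026 to 291 FPKM on average (log2 change -1.81, SE 0.0787, adjusted p = 1.37e-10), and Isx, the intestinal homeobox regulator of vitamin A uptake, from 3.32 to 0.189 FPKM. Mt4, Cfhr2, Ugt2b38 and Fmr1nb completed, with Reg3b above, the 10 largest falls, at -2.04, -2.06, -2.05 and -2.11.

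Several families of drug-metabolising enzymes were mostly lower, where 20.3% of all genes were lower and 26.9% higher. These families were counted after the values were seen, and members share near-identical sequence, so the division of reads between paralogs is uncertain. Of 12 UDP-glucuronosyltransferases, 11 were lower and 0 higher (median -1.04), and of 22 glutathione S-transferases, 18 were lower and 0 higher (median -0.54). Of 12 carboxylesterases 7 were lower and 0 higher, and of 36 cytochromes P450 19 were lower and 6 higher. In the list of redox genes and targets of NRF2, the antioxidant transcription factor, 11 of 17 were lower and 2 higher. Gstm1 fell from 1461, 1462, 1370.0 and 1535 FPKM to 534, 462, 552 and 598 FPKM (log2 change -1.45, SE 0.0835, adjusted p = 3.52e-09), and the quinone reductase Nqo1 from 209.6, 183, 177 and 191 FPKM to 76.4, 65.7, 73.9 and 74.7 FPKM (log2 change -1.38, SE 0.0804, adjusted p = 3.98e-09). Gclm, of the rate-limiting step of glutathione synthesis, and Gsta4 fell, with log2 changes of -0.82 and -0.86. The gene of NRF2 itself, Nfe2l2, had 0.03 (adjusted p = 0.621) and was named after its value was seen. Of the 2 higher genes, Hmox1 and Keap1, named after their values were seen, 1 was lost without control library 1 or without TNF library 2, 3 or 4.

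Sterol genes rose modestly and together. Of 16 cholesterol synthesis genes, 13 were higher and 0 lower, against 26.9% and 20.3% of all genes. The median of the list was 0.30. Sqle, the squalene epoxidase gene, rose from 54.9, 63.3, 61.9 and 61.1 FPKM to 81.4, 86.9, 85.9 and 85.2 FPKM (log2 change 0.49, SE 0.0514, adjusted p = 2.48e-06). Hmgcs1, which encodes the cytosolic HMG-CoA synthase, rose from 182, 199.7, 199 and 197 FPKM to 254, 262, 273 and 252 FPKM (log2 change 0.42, SE 0.0544, adjusted p = 2.11e-05), and the groups did not overlap in either gene. In the unfolded protein response list, 8 of 16 were higher and 0 lower, with a median of 0.24. Ppp1r15a (GADD34), which resets translation, rose by 1.10 and the pro-apoptotic factor Ddit3 by 0.85. The ER chaperone Hspa5 rose by 0.32, and the sensor kinase Ern1 by 0.63.

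Markers of crypt stem cells and Wnt and Notch targets were mostly higher, where 26.9% of all genes were higher and 20.3% lower. In bulk organoids, more cells of a type and more RNA per cell cannot be told apart. Of 13 stem cell markers, 11 were higher and 0 lower, with a median of 0.78, and of 15 Wnt and Notch genes, 14 were higher and 0 lower, with a median of 0.64, while some genes belong to both lists. Ascl2, the stem cell transcription factor, was read at 2.64, 3.41, 3.09 and 2.88 FPKM without TNF and 13.9, 24.0, 19.3 and 20.0 FPKM with TNF (log2 change 2.32, SE 0.141, adjusted p = 5.99e-09). Lgr5, the Wnt-amplifying receptor that marks these cells, was read at 7.37, 6.69, 6.76 and 8.49 FPKM without TNF and 27.9, 27.6, 27.1 and 27.2 FPKM with TNF (log2 change 1.78, SE 0.112, adjusted p = 9.19e-09). Tnfrsf19 (Troy) rose by 1.77, Tcf7 by 1.00, the Notch ligand Dll1 by 0.91 and Sox9 by 0.87. Olfm4 and Axin2, named after their values were seen, rose by 0.49 and 0.83. Cell cycle genes moved little: of 21, 7 were higher and 3 lower with a median of 0.12, and Cdk1 and Pcna had log2 changes of -0.23 and -0.20 while Mcm4 and Ccnd1 rose by 0.35 and 0.39. These counts were 11 higher and 5 lower without the libraries that lay apart.

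Differentiated lineages gave less uniform values, to be read against 26.9% of all genes higher and 20.3% lower. Of 12 Paneth cell markers 8 were higher and 0 lower, among them Defa22 (1.36), whose reads may be shared with other alpha-defensins, and Pnliprp2 (1.03). These 2 were the only Paneth markers called with a rise of at least 2-fold, and the median was 0.39. The summed Paneth list overlapped between the groups, at 18560 to 21500 FPKM without and 18160 to 21180 FPKM with TNF. Of 10 goblet cell markers 3 were lower, namely Zg16 (-0.82), Agr2 (-0.50) and Ccl6 (-0.35), and 1 was higher, Clca1 (0.23). The call of Clca1 was lost after median-of-ratios scaling (adjusted p = 0.0843), where 0 were higher, after quantile normalization (0.142) and without TNF library 4 (0.0507), and 4 markers were higher without the libraries that lay apart. Of 18 enterocyte markers 11 were higher and 2 lower. Lct, the lactase gene of the brush border, went from 0.816, 1.09, 1.24 and 1.19 FPKM to 10.5, 9.71, 10.4 and 9.45 FPKM (log2 change 2.40, SE 0.0720, adjusted p = 1.94e-12), and the sugar transporter genes Slc5a1 (SGLT1) and Slc2a5 (GLUT5) rose by 1.32 and 1.23, whereas the fatty acid-binding Fabp2 fell, with -0.95. Of 14 enteroendocrine markers 7 were higher and 1 lower, among them Nts (1.33) and Gcg (0.66), and the count of 7 was 4 without control library 1, while the lower gene was not called in some fits without 1 library. The 4 tuft cell markers tested split into 1 higher (Pou2f3), 1 lower (Rgs13) and 2 not called, among them Avil (0.03).

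**Figure D4:**
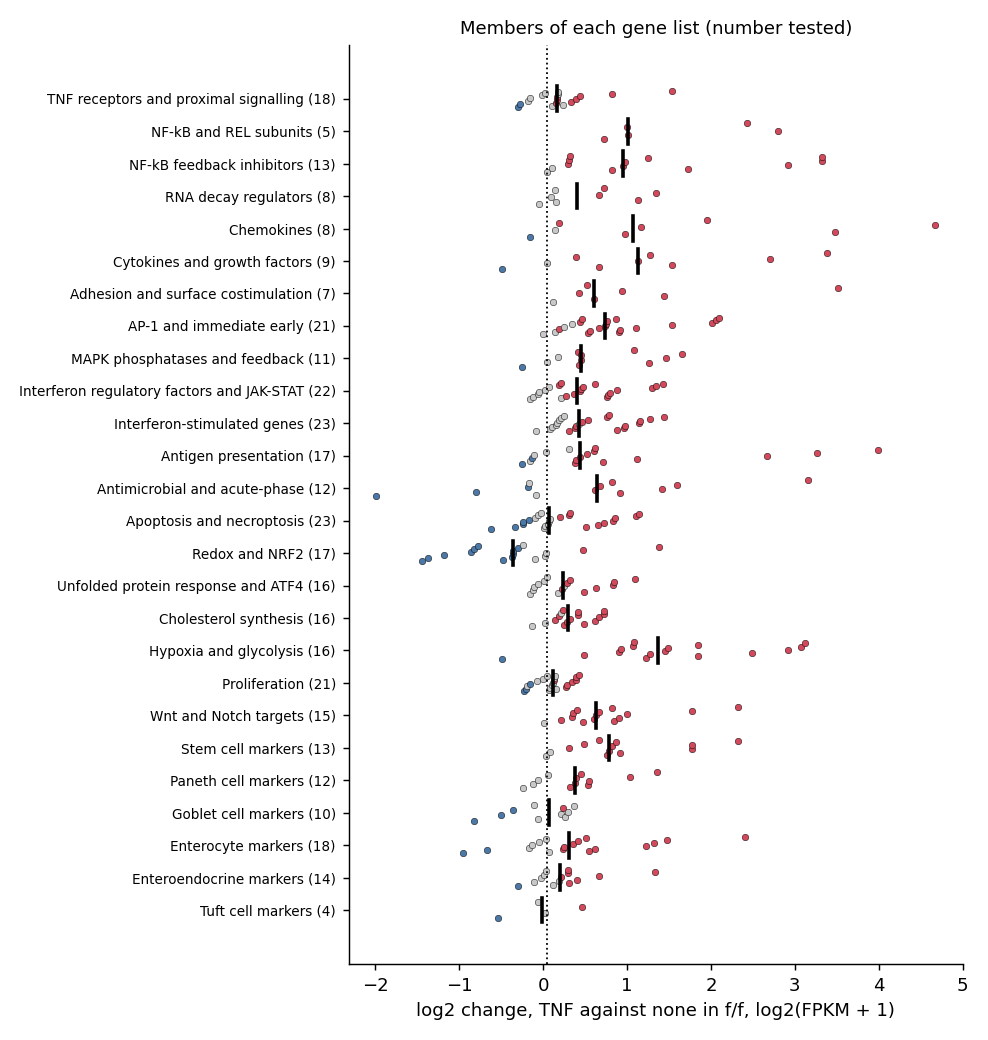
Log2 change with TNF in f/f organoids of every tested member of each list, 1 point per gene, red for called higher, blue for called lower and grey for not called. The thick line is the median of the list and the dotted line the median of all genes, 0.05, and the medians of the hypoxia and NF-kB lists lie to the right of it while that of the redox list lies to the left.

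To ask whether loss of ATG16L1 alters the response, that of f/f organoids was set against that of dIEC organoids by testing the difference of the 2 responses in the same fit. The difference was called for 365 of 11097 genes (3.29%), with the dIEC response above that of f/f in 154 (1.39%) and below it in 211 (1.9%). The count was 240 without control f/f library 4 and 967 without the libraries that lay apart. The targeted gene Atg16l1 was read at 5.20 to 6.41 FPKM in unstimulated and 6.74 to 7.63 FPKM in stimulated dIEC libraries, below every f/f library. Of the 158 genes named by rule, 19 differed. The rule takes up to 4 members of many lists, so it leaves out other genes that differed. The difference was called, in either direction, for 9 of 23 interferon-stimulated genes, 7 of 18 enterocyte markers and 6 of 12 antimicrobial genes. It was called for at most 3 members of any other list. Of the 23 interferon-stimulated and 12 antimicrobial genes, 9 and 3 had control f/f means under 1 FPKM. They met the minimum only through other groups, so these counts are conditioned on the filter, and members were chosen with earlier results of these data known. The 4 interferon-stimulated genes named by rule were not among those called. For Nfkbia, Tnfaip3 and Ccl20 no difference was called, with log2 changes of 3.33 in f/f and 3.33 in dIEC for Nfkbia, 2.91 and 2.91 for Tnfaip3, and 4.67 and 4.55 for Ccl20. Among other NF-kB targets the difference, dIEC minus f/f, was called for Cxcl10 (0.71), Cxcl16 (0.56), Tnf (0.46) and Cd83 (-0.61), of which the calls of Cxcl10 and Tnf were lost in 15 and 11 of 27 other settings. A difference that misses the threshold does not show that the responses were equal.

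Each value here is a log2 change. Cd74 and H2-Ab1 rose more in f/f (3.99 against 2.77, difference -1.22, SE 0.240, adjusted p = 0.00973, and 3.26 against 2.28, difference -0.98, SE 0.205, adjusted p = 0.0152). Their unstimulated means were 2.12 FPKM in f/f and 5.17 FPKM in dIEC for Cd74, and 1.06 and 2.41 FPKM for H2-Ab1. With TNF the means were 48.9 FPKM in f/f and 41.4 FPKM in dIEC for Cd74, and 18.9 and 15.6 FPKM for H2-Ab1. The stimulated libraries of the genotypes overlapped for both genes. Defa22 rose in f/f (1.36) and had -0.19 in dIEC (difference -1.55, SE 0.0980, adjusted p = 4.66e-07). Lct and Slc5a1 rose more in f/f, by 2.40 against 1.32 and 1.32 against 0.75. Bnip3 did so too, with 2.49 against 1.83 (difference -0.66, SE 0.128, adjusted p = 0.00973). In the other direction Nos2 rose by 3.16 in f/f and 4.06 in dIEC (difference 0.90, SE 0.120, adjusted p = 0.000611), and Cxcl16 by 1.95 and 2.51. Il1rn rose by 0.66 in f/f and 1.58 in dIEC (difference 0.92, SE 0.120, adjusted p = 0.000541). Fmr1nb, which fell in f/f (-2.11), was read at 0.0371, 0.688, 0 and 0.0791 FPKM in unstimulated dIEC against 5.91 to 8.56 FPKM in unstimulated f/f, so no fall could be read in dIEC and its called difference is not one of responses. Reg3b fell less in f/f (-1.98 against -4.21, difference -2.23, SE 0.136, adjusted p = 4.66e-07). The call was lost with a pseudocount of 0.1 for Nos2 (adjusted p = 0.257) and with a pseudocount of 5 for Cd74 and H2-Ab1 (adjusted p = 0.0537 and 0.0908).

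**Figure D5:**
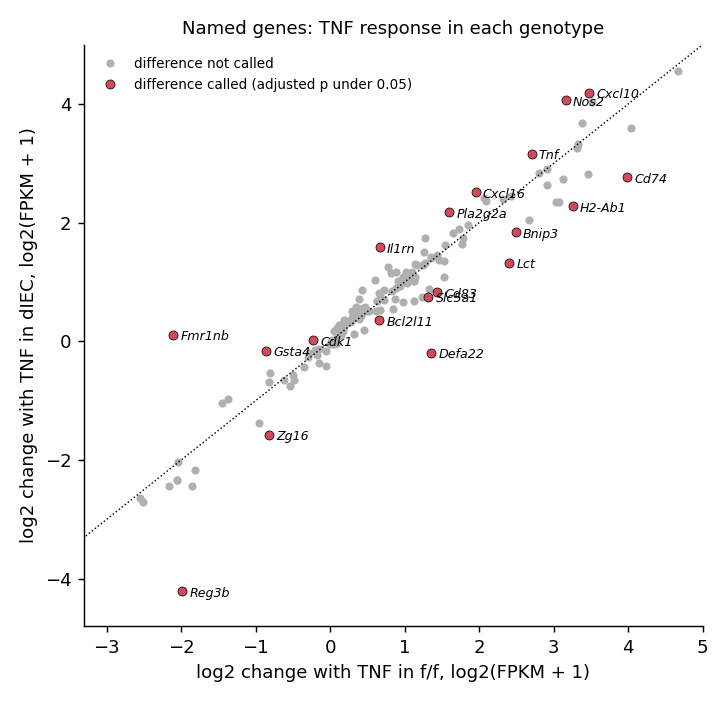
Log2 change with TNF in f/f (horizontal axis) against that in dIEC (vertical axis) for the 158 named genes, log2(FPKM + 1) scale. Red points with names are the 19 genes whose responses differed at adjusted p under 0.05, the dotted line marks equal responses, and Reg3b and Fmr1nb lie farthest from it, the latter being near 0 FPKM in dIEC without TNF.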

How the data were processed

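RNA was measured in 16 libraries, of which 8 are f/f. Values are FPKM computed by the authors, and TopHat2 2.1.1, Cufflinks 2.2.1, Cuffdiff and mm10 are named in the submitters' processing notes. Depth is unknown, so no counting interval is given. The authors' mean and p-value columns were not used. Of 23847 rows, 11097 whose mean over the 16 libraries reached 1 FPKM were tested as log2(FPKM + 1) in limma 3.58.1 (R 4.3.3), with 1 mean per group of 4, a mean-variance trend and all 16 libraries sharing 1 spread. Contrasts were TNF minus none in f/f, and the dIEC response minus the f/f response. Adjusted p is Benjamini-Hochberg over all rows, with calls at 0.05. The fit was run on simulated data with independent normal noise, which lack the GC-linked deviation of these libraries. That run therefore lends no support to the calls made here. Symbols with several rows (254) were tested but not named, and division of reads among overlapping genes, or genes antisense to each other, is uncertain because no source used here gives strand use.

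Members and lists were chosen with earlier results of these data known, so no list was tested. Genes were named by rule: the top 15 rises and top 10 falls by log2 change (called, 1 row, groups not overlapping), clone and predicted names left out, all tested members of the 7 lists from TNF receptors to adhesion genes, up to 4 members of smallest adjusted p from each other list, and Atg16l1, Tnfrsf1a and Tnf. Others are marked as named after their values were seen, and a few genes that the rule names are not reported here. Whether replicate numbers mark pairs is unknown, and the main fit did not take them as pairs. Alternatives were other pseudocounts (0.1 and 5), minimum levels, scalings, variance models, a replicate block, removal of a GC trend and leaving out libraries.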

Additional observations from a re-analysis of the deposited data

Results flagged for a closer look

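In groups of 4 libraries, a library far from the other 3 (Dixon's test at its 95% critical value) was found for 24 groups of named genes and 1 marker sum, of 320 groups tested, and chance flags about 1 in 20. Of the 24, 19 lie in library 1, which also stood apart with GC content. The part of these libraries in each result was not tested beyond the fits that leave them out.

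Library 1 of the TNF group was low, in FPKM, for Traf2 (6.97 against 9.85 to 10.2 in the other 3), Rnf31 (4.63), Nfkb2 (23.55 against 38.1 to 40.7), Tnip2 (2.31), Tnfrsf21 (2.28), Ier3 (11.5 against 17.0 to 18.1), Dusp4 (7.19), Ppp1r15a (4.64) and Avil (1.04). Library 1 of the controls was low for Zfp36 (10.7), Tnfrsf21 (2.13), Hmgcs1 (182) and Mcm4 (22.8), and high for Casp4 (19.7), Gsta4 (584), Pnliprp2 (22.6) and Ccl6 (35.5). Elsewhere, control library 3 was low for Fmr1nb (5.91) and high for Cd83 (3.53), and TNF library 4 was high for Dusp1 (5.58) and Bcl2l11 (4.02) and low for Tcf7 (5.30). The summed mesenchymal and endothelial markers were high in control library 4, at 13.8 FPKM.

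The response to TNF differed between genotypes at adjusted p under 0.05 for 19 named genes in limma, given here as the log2 difference, dIEC minus f/f. It was below 0 for Reg3b (-2.23), Defa22 (-1.55), Cd74 (-1.22), Lct (-1.08), H2-Ab1 (-0.98), Zg16 (-0.75), Bnip3 (-0.66), Cd83 (-0.61), Slc5a1 (-0.57) and Bcl2l11 (-0.30). It was above 0 for Fmr1nb (2.22), which was near 0 FPKM in unstimulated dIEC and could not fall there, Il1rn (0.92), Nos2 (0.90), Cxcl10 (0.71), Gsta4 (0.70), Pla2g2a (0.58), Cxcl16 (0.56), Tnf (0.46) and Cdk1 (0.24). The calls of Cxcl10, Tnf and Cdk1 were lost in 15, 11 and 7 of 27 other settings.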

How the results depend on the processing

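Of the 158 named genes, 146 or more kept direction and side of the threshold under each setting, the fewest with quantile normalization, apart from a minimum mean of 5 FPKM, where 120 were tested and all 120 did. The number of genes called was 3892 to 7628 over the other settings (4499 to 5781 without 1 library) and 298 with a 2-fold minimum, and 4671 genes were higher with sample weights. The difference of responses was called for 195 genes with a minimum mean of 5 FPKM, 594 with the GC trend removed, 967 without the libraries apart, 1920 with sample weights and 28 with a 2-fold minimum, and for 240 to 450 without 1 library, the lowest without control f/f library 4. Ccl25 reversed to a log2 change of 0.0216 with the GC trend removed. The difference of Atg16l1 was 1.55 FPKM (exact permutation p = 0.1, the smallest for 3 against 3) without the libraries apart, and 1.24 to 1.75 FPKM without 1 library, where 3 against 4 cannot go below 0.0286.

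Same-numbered libraries without and with TNF deviated together in 3 of 4 pairs (r = 0.321, 0.124 and 0.118) and not in the fourth (-0.0296), and control library 4 correlated best with TNF library 3 (0.146), so the numbers were not taken as pairs. With the replicate block, 7336 genes were called, 4365 of them higher, the difference of responses was called for 1231, and Tnfrsf1a was called higher (adjusted p = 0.00108).

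The list counts and single values under other settings were chosen after seeing the data. Low-expressed genes, and changes under the spread of 4 libraries, are limited by depth that the FPKM values do not give.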

Other observations

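Ribosomal protein genes, counted after their values were seen, were lower in 32 of 76 and higher in 0, with a median log2 change of -0.23 and no change of 2-fold. After quantile normalization 6 were higher and 7 lower, with a median of -0.05. Solute carrier genes were called in both directions, with 58 of 211 higher and 56 lower and a median of 0.02, shares near the 26.9% and 20.3% of all genes.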
